A study of Homo sapiens with 20 samples.

Results

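The response of ANBL6 human myeloma cells to indirubin-3'-monoxime (I3MO) was read from 4 RNA sequencing libraries, 2 of cells given 5 µM I3MO and 2 of cells given DMSO, the vehicle. The labels give the genotype of all 4 as wild type and the source as bone marrow, and the RNA as total RNA. They belong to a set of 20 libraries from 5 myeloma models, which also holds ANBL6BR (its bortezomib-resistant form per the labels, bortezomib being a proteasome inhibitor, also at 5 µM) and the lines ARP1, RPMI8226 and U266 at 10 µM, each with its own DMSO group. A gene was included where it reached 1 FPKM (fragments scaled to each kilobase of the gene and each M, or mega, of fragments in the library) in at least 2 of the 4 ANBL6 libraries, which held for 10086 of the 60483 genes listed. Of these 10086 genes, 8343 are annotated as protein-coding and 8696 reached 1 FPKM in all 4 libraries. Another 320 passed through the I3MO libraries alone, 208 through the DMSO libraries alone and 245 through 1 library of each group, and the median level of the 773 genes with exactly 2 libraries at 1 FPKM was 1.0 FPKM, against 0.631 FPKM for the 1328 genes with only 1 such library. The sources used here do not give the length of treatment, the culture medium or whether replicates came from separate cultures, so p-values cover the spread among these samples only, and that spread may be technical.

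ANBL6 is a line of malignant plasma cells that is usually grown with interleukin 6, the cytokine that signals through JAK kinases and the transcription factor STAT3. I3MO is a derivative of indirubin, and indirubins bind the ATP site of several kinases, including cyclin-dependent kinases and GSK3, and are ligands of the aryl hydrocarbon receptor. When amino acids run short or proteins misfold, cells slow protein synthesis and translate more ATF4, a transcription factor that raises genes for amino acid synthesis, amino acid uptake and tRNA charging. Plasma cells, which make and secrete large amounts of antibody, carry heavy protein folding loads and normally switch off MHC class II, the molecules that present peptides to helper T cells, by losing the transactivator CIITA.

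The ANBL6 libraries held 14.11 M and 12.11 M fragments with I3MO and 14.48 M in each DMSO library, against 13.77 M to 20.31 M in the other 16 libraries. Log2 values correlated across the included genes at 0.982 between the I3MO libraries, 0.987 between the DMSO libraries and 0.955 to 0.971 between the groups, where genes are not independent replicates. Plasma cell markers were present: SDC1 had 29.3 and 30.7 FPKM in the I3MO libraries and 31.6 and 28.8 FPKM in the DMSO libraries, and TNFRSF17 (the surface receptor BCMA) had 14.3 and 18.7 FPKM in the I3MO libraries and 11.8 and 11.4 FPKM in the DMSO libraries. None of 12 B cell genes was included, with MS4A1 at 0 in all 4 libraries, while the plasma cell surface gene SLAMF7 was close to 0 at 0.0288 and 0.00335 FPKM with I3MO against 0.0112 and 0.0028 FPKM with DMSO. Both I3MO libraries had more genes above 0, at 32668 and 28419 with I3MO against 22138 and 22710 with DMSO, and 20766 to 26588 in the other 16 libraries. They also showed a trend with gene length that the DMSO libraries did not, described with the ribosomal protein genes below.

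Of the 10086 genes, 574 (5.69%) were higher and 587 (5.82%) were lower with I3MO, and 8925 did not pass (limma, adjusted p under 0.05). Each count of list members called higher or lower with I3MO below is to be read beside these shares. Each fold change is a difference of log2(FPKM + 1), I3MO minus DMSO, which understates the change of low genes, and is given with its standard error (SE). The spread was pooled over all 20 libraries and p-values were adjusted over the 15687 genes that reached 1 FPKM in at least 2 of the 20, of which 1250 (7.97%) were called. The median fold change of the included genes was 0.01. The 1250 calls became 380 when I3MO replicate 2 was left out, 465 or 355 when DMSO replicate 1 or 2 was, and 1287 when I3MO replicate 1 was. Both I3MO libraries lay above both DMSO libraries for 3489 included genes (34.6%) and below them for 3256 (32.3%). In a fit of the 4 ANBL6 libraries alone 18 genes were called. Of these 1 was higher, 17 were lower and 6 are among the 1250. Since RNA came from bulk cultures, fewer cells of a kind and less RNA per cell cannot be told apart.

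**Figure D1:**
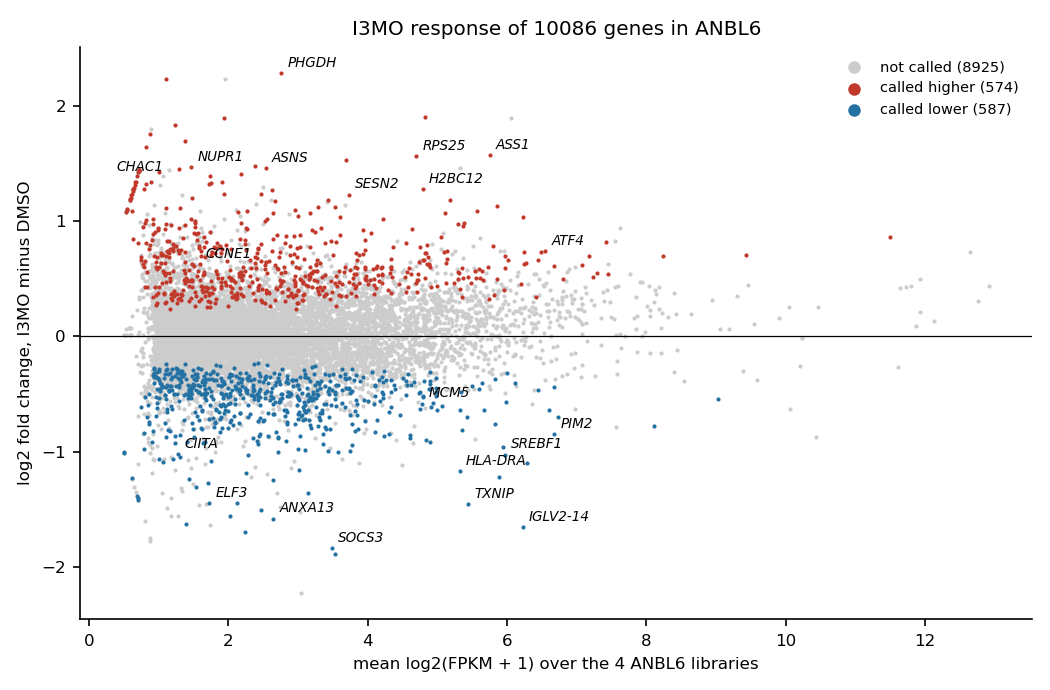
Each point is 1 of the 10086 genes, with its mean level over the 4 ANBL6 libraries, log2(FPKM + 1), on the x axis and its I3MO minus DMSO log2 fold change on the y axis. The 574 genes called higher, the 587 called lower and the 8925 not called are marked by colour, and calls lie on both sides at every level.

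In the other models the genes called in ANBL6 had medians of the same sign. They were chosen by their ANBL6 change, so this was not tested. The 574 genes that rose in ANBL6 had a median fold change of 0.11 in ANBL6BR, 0.07 in ARP1, 0.19 in RPMI8226 and 0.12 in U266. The 587 that fell had medians of -0.09, -0.14, -0.27 and -0.16 in the same order. The ANBL6 response minus the ANBL6BR response, both at 5 µM, was called for 1328 of 15687 genes (8.47%). Lambda light chain genes differed in level between the DMSO libraries of ANBL6 and ANBL6BR, as given under other observations. The ANBL6 response minus the mean response of the other 4 models was called for 1535 (9.79%), a comparison in which dose and model cannot be told apart.

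**Figure D2:**
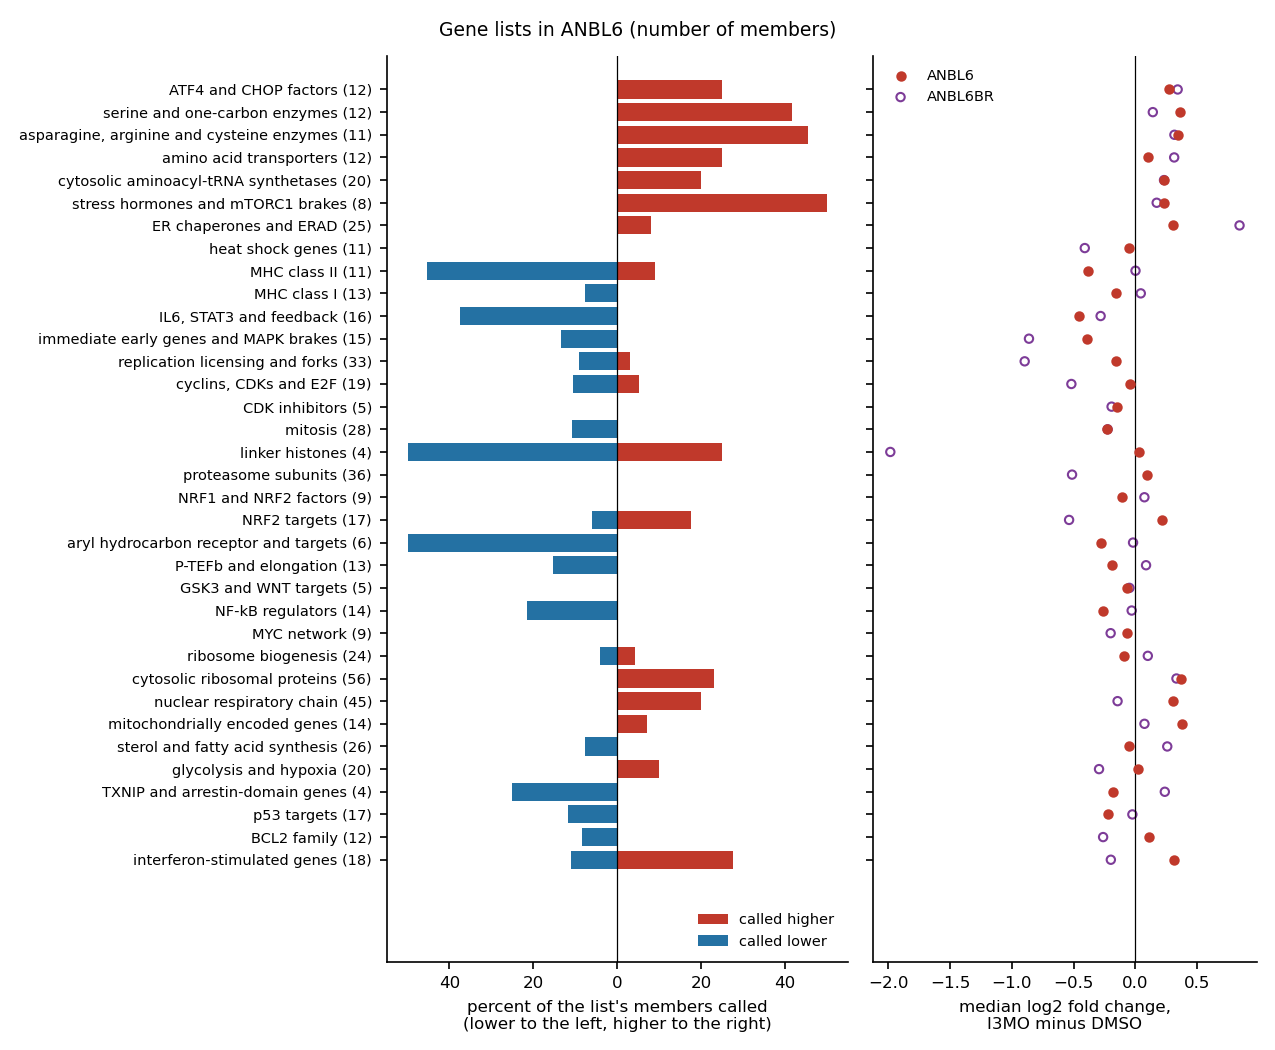
The left panel gives the percent of the included members of each gene list that were called lower (to the left) or higher (to the right) with I3MO in ANBL6. The right panel gives the median log2 fold change of the same members in ANBL6 (filled points) and in ANBL6BR (open points), and the replication list stands at -0.16 in ANBL6 and -0.90 in ANBL6BR.

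Genes of amino acid supply rose in ANBL6 with I3MO. In 6 lists of ATF4 and CHOP factors, serine and one-carbon enzymes, asparagine, arginine and cysteine enzymes, amino acid transporters, cytosolic tRNA synthetases, and stress hormones with mTORC1 brakes, 24 of 75 included members rose, 0 fell and 51 did not pass, against 5.69% higher and 5.82% lower over all included genes. The median fold change of the 75 was 0.26, and 55 were above 0. The response was called higher than in ANBL6BR for 7 of the 75 and lower for 2, against 5.71% and 5.06% of the included genes. Set against the mean response of the other 4 models, it was called higher for 3 and lower for 8, where the included genes had 7.32% and 4.71%. The count of 24 was 27 when I3MO replicate 1 was left out, 11 when I3MO replicate 2 was, and 15 or 13 when DMSO replicate 1 or 2 was. It was also 24 after the length trend was removed. Among the 24, NUPR1, CTH, CHAC1, SLC6A9 and INHBE were below 1 FPKM in both DMSO libraries. They were included only through the I3MO libraries, where they are high. With DMSO, CTH, CHAC1, SLC6A9 and INHBE were lower in ANBL6 than in each other model, and NUPR1 was higher. The 1 added to FPKM understates changes at low levels, and its part in the differences from other models was not tested.

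Promoter sequences of 3 of the genes that rose are shown because each holds the ATF4 composite element, TGATGNAA, within 250 bases before to 50 bases after the RefSeq start site (GRCh38.p14). Capitals mark the element, which reads as its reverse complement where it lies on the opposite strand. ASNS (chr7:97872359-97872658, minus strand) holds it 68 bases before the start, CHAC1 (chr15:40953221-40953520, plus strand) on the opposite strand 209 bases before the start, and MARS1 (chr12:57487818-57488117, plus strand) on the opposite strand 4 bases before the start.
ASNS: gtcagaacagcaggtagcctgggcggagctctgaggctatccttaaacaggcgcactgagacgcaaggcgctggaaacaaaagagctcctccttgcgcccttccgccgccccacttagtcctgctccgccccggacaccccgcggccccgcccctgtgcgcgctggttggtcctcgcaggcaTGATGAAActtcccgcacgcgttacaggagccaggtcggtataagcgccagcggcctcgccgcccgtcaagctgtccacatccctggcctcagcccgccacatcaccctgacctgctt
CHAC1: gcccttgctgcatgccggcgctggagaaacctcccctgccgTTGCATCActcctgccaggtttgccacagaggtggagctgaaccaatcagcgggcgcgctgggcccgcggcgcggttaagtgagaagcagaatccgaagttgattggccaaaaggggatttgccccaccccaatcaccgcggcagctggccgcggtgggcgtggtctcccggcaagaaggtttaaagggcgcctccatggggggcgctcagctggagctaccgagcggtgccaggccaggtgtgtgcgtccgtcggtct
MARS1: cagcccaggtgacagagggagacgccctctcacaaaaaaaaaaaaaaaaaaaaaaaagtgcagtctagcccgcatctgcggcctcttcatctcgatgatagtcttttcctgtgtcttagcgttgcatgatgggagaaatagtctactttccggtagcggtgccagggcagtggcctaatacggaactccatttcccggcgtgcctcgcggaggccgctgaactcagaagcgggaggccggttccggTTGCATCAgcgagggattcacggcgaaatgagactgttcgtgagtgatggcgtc
The element was found on either strand in 14 of the 58 promoters of these 75 members that were in the RefSeq table (24.1%), and in 3 of 18 promoters of those that rose (16.7%). It was in 1.64% of 7246 promoters of all included genes and 3.67% of 27305 promoters in the table. The windows of PHGDH, PSAT1, SESN2, TRIB3 and ATF4 hold no match to these letters. A match is a description of the letters and was not tested as a site of binding.

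The factor genes of this programme were led by ATF4 itself and NUPR1. ATF4 (chr22:39519695-39522685) had 111 and 129.5 FPKM in the I3MO libraries and 74.9 and 68 FPKM in the DMSO libraries, a log2 fold change of 0.74 ± 0.10 (SE, limma adjusted p = 0.000929). Both I3MO libraries were above both DMSO libraries, and the fold change was 0.38 in ANBL6BR, 0.97 in ARP1, 0.80 in RPMI8226 and 1.31 in U266. NUPR1, a stress-induced chromatin protein, had 2.11 and 5.78 FPKM in the I3MO libraries and 0.667 and 0.656 FPKM in the DMSO libraries, a fold change of 1.47 that was 0.90 without I3MO replicate 2. In ANBL6BR this gene was close to 0, with means of 0.0347 FPKM with I3MO and 0.0104 FPKM with DMSO. TRIB3, a pseudokinase that restrains ATF4 and AKT, had 10.1 and 12.3 FPKM in the I3MO libraries and 6.89 and 6.51 FPKM in the DMSO libraries, with a log2 fold change of 0.66 ± 0.14 (SE, limma adjusted p = 0.0151). The groups did not overlap, but the call ended without I3MO replicate 2 or without either DMSO library. DDIT3, which encodes CHOP, had 1.61 and 1.97 FPKM in the I3MO libraries and 0.952 and 0.577 FPKM in the DMSO libraries and did not pass (0.67, limma adjusted p = 0.1). Of 12 factors 3 rose and 0 fell.

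All 3 enzymes that make serine from glycolysis rose. PHGDH (chr1:119648411-119744226), the first enzyme, had 11.7 and 16.5 FPKM in the I3MO libraries and 2.35 and 1.81 FPKM in the DMSO libraries. This was the largest rise in ANBL6 by fold change (2.28 ± 0.14, limma adjusted p = 1.64e-06), with no overlap between groups. PSAT1, the second enzyme, had 50.9 and 65.5 FPKM in the I3MO libraries and 28.9 and 28.6 FPKM in the DMSO libraries (0.98 ± 0.18, limma adjusted p = 0.00684). PSPH, the last enzyme, had 5.69 and 6.08 FPKM in the I3MO libraries and 3.08 and 3.25 FPKM in the DMSO libraries (0.73 ± 0.13, limma adjusted p = 0.00513). All 3 were higher in both I3MO libraries, and the calls of PSAT1 and PSPH ended without I3MO replicate 2, that of PSAT1 also without DMSO replicate 2. The mitochondrial one-carbon enzymes SHMT2 and MTHFD2, which pass the serine carbon to folate, had fold changes of 0.49 and 0.52 (limma adjusted p = 0.00947 and 0.0171). Both calls ended without I3MO replicate 2 or either DMSO library. In all, 5 of 12 members rose and 0 fell, 1 without I3MO replicate 2, 3 without DMSO replicate 1 and 2 without DMSO replicate 2. The PHGDH response was larger than in ANBL6BR by 2.25 ± 0.20 (limma adjusted p = 6.99e-05), where its means were 37.3 FPKM with I3MO and 36.6 FPKM with DMSO.

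**Figure D3:**
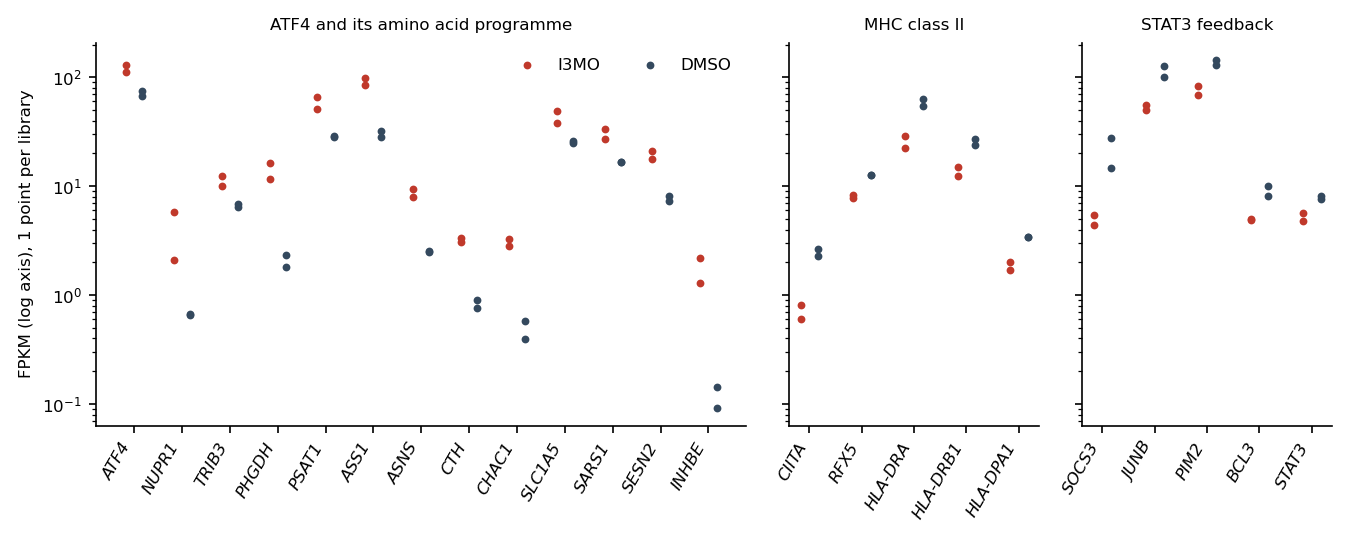
FPKM on a log axis for genes of 3 groups, with 1 point per ANBL6 library, I3MO to the left of DMSO for each gene. ATF4 and its amino acid genes lie higher in both I3MO libraries, while the class II and STAT3 feedback genes lie lower in both.

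Enzymes for asparagine, arginine, alanine and cysteine rose as well, 5 of 11 members, with 0 lower and 4 or 5 without any 1 library. ASS1 (chr9:130444929-130501274), which makes argininosuccinate on the way to arginine, had 85.4 and 99 FPKM in the I3MO libraries and 32.5 and 28.2 FPKM in the DMSO libraries, with a log2 fold change of 1.57 ± 0.12 (SE, limma adjusted p = 1.54e-05). ASNS, asparagine synthetase, had 7.93 and 9.4 FPKM in the I3MO libraries and 2.54 and 2.47 FPKM in the DMSO libraries, with a log2 fold change of 1.46 ± 0.13 (SE, limma adjusted p = 4.3e-05). In both genes the lowest I3MO library was well above the highest DMSO library. CTH, which makes cysteine from cystathionine, had 3.08 and 3.36 FPKM in the I3MO libraries and 0.9 and 0.769 FPKM in the DMSO libraries (1.20 ± 0.17, limma adjusted p = 0.00153). GPT2, the mitochondrial alanine transaminase, had 9.21 and 12 FPKM in the I3MO libraries and 4.39 and 4.8 FPKM in the DMSO libraries (1.04 ± 0.13, limma adjusted p = 0.000672). CHAC1, which breaks down glutathione, had 2.84 and 3.29 FPKM in the I3MO libraries and 0.577 and 0.397 FPKM in the DMSO libraries (1.45 ± 0.29, limma adjusted p = 0.0107), and lost its call without I3MO replicate 2 or either DMSO library. The groups did not overlap for any of these 3 genes. Compared with ANBL6BR, the response was larger by 1.09 ± 0.17 (limma adjusted p = 0.0033) for ASS1, by 1.14 ± 0.18 (limma adjusted p = 0.00333) for ASNS and by 0.92 ± 0.19 (limma adjusted p = 0.0122) for GPT2. The starting levels differed too, since ASNS averaged 28.8 FPKM with I3MO and 22.9 FPKM with DMSO in ANBL6BR.

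Of 12 amino acid transporters 3 rose and 0 fell, and 1 rose without I3MO replicate 2, DMSO replicate 1 or DMSO replicate 2. SLC1A5, a glutamine carrier, had 37.7 and 49.4 FPKM in the I3MO libraries and 25.1 and 26.3 FPKM in the DMSO libraries (0.73 ± 0.11, limma adjusted p = 0.00232). SLC6A9, a glycine carrier, rose by 0.55 and SLC43A1, a carrier of large neutral amino acids, by 0.58 (limma adjusted p = 0.00903 and 0.0338), and these 2 calls ended without I3MO replicate 2 or either DMSO library. SLC7A11, the cystine importer, had a fold change of 0.92 and did not pass (limma adjusted p = 0.157). Among 20 cytosolic aminoacyl-tRNA synthetases, which load amino acids on tRNA, 4 rose, 0 fell and 18 had a fold change above 0. SARS1, for serine, had 27.3 and 33.4 FPKM in the I3MO libraries and 16.8 and 16.7 FPKM in the DMSO libraries (0.81 ± 0.10, limma adjusted p = 0.000661), and GARS1, for glycine, had 66.8 and 78.5 FPKM in the I3MO libraries and 42 and 41.2 FPKM in the DMSO libraries (0.79 ± 0.14, limma adjusted p = 0.00553). MARS1, for methionine, and YARS1, for tyrosine, rose by 0.45 and 0.46 (limma adjusted p = 0.00903 and 0.0152), calls that ended with median-ratio scaling. All 4 were higher in both I3MO libraries, and the count was 6 when I3MO replicate 1 was left out, 1 (SARS1) when I3MO replicate 2 was, and 3 or 2 when DMSO replicate 1 or 2 was.

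Brakes on growth signalling and secreted stress hormones rose in 4 of 8 members, with 0 lower, and in 2 without I3MO replicate 2 or either DMSO library. SESN2, a leucine sensor that restrains mTORC1, had 17.8 and 21 FPKM in the I3MO libraries and 8.06 and 7.28 FPKM in the DMSO libraries (1.23 ± 0.14, limma adjusted p = 0.000262). INHBE, an activin subunit, had 1.3 and 2.18 FPKM in the I3MO libraries and 0.144 and 0.0917 FPKM in the DMSO libraries (1.28 ± 0.16, limma adjusted p = 0.000508), low levels at which DMSO was near 0. Neither gene's groups overlapped, and the SESN2 fold change in ANBL6BR was 1.30. DDIT4, another mTORC1 inhibitor, had 24.7 and 27.4 FPKM in the I3MO libraries and 14.6 and 14.9 FPKM in the DMSO libraries (0.78 ± 0.17, limma adjusted p = 0.0164). STC2, a secreted glycoprotein, rose by 0.49 (limma adjusted p = 0.0239). The calls of DDIT4 and STC2 were those that ended without any 1 of these libraries. The other 4 members had fold changes below 0 and did not pass, and the median of the list was 0.23, or -0.03 over the 7 members with a mean of at least 1 FPKM in ANBL6.

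Few genes of protein folding in the endoplasmic reticulum (ER) passed the test in ANBL6, though most lay above DMSO. Of 25 ER chaperones and degradation genes 2 rose and 0 fell, and 0 were called in each fit that left out 1 of the 4 libraries, while 21 had a fold change above 0 and the median was 0.30. The 2 rises stand against 5.69% of the included genes called higher. Both I3MO libraries were above both DMSO libraries for 17 of the 25 and below them for 3, against 34.6% and 32.3% of the included genes. DNAJB9, an ER cochaperone, had 8.01 and 6.77 FPKM in the I3MO libraries and 4.14 and 3.21 FPKM in the DMSO libraries (0.85 ± 0.20, limma adjusted p = 0.0236), and PDIA3, a disulfide isomerase, had 34.8 and 36.3 FPKM in the I3MO libraries and 21.3 and 21 FPKM in the DMSO libraries (0.72 ± 0.20, limma adjusted p = 0.0441). Groups did not overlap for either. The main ER chaperone HSPA5 (BiP) had 432 and 421 FPKM in the I3MO libraries and 404 and 345 FPKM in the DMSO libraries and did not pass (0.19, limma adjusted p = 0.518). HYOU1, an HSP70-like ER chaperone, had 5.84 and 4.61 FPKM in the I3MO libraries and 6.69 and 5.9 FPKM in the DMSO libraries, with a log2 fold change of -0.23 ± 0.13 (SE, limma adjusted p = 0.313).

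The median of the same 25 genes was 0.84 in ANBL6BR, and the difference of the responses was called lower in ANBL6 for 6 of them and higher for 0, against 5.06% and 5.71% of the included genes. For HYOU1 it was -1.71 ± 0.18 (limma adjusted p = 0.000268), with ANBL6BR means of 23.2 FPKM with I3MO and 7.7 FPKM with DMSO. CALR, a lectin chaperone, had 298 and 309 FPKM in the I3MO libraries and 299 and 279 FPKM in the DMSO libraries, and its response differed from that of ANBL6BR by -0.91 ± 0.13 (limma adjusted p = 0.00205). The other calls were PDIA3 (-1.18 ± 0.28, limma adjusted p = 0.0232), the lectin chaperone CANX (-0.79 ± 0.20, limma adjusted p = 0.0326), the ER-anchored transcription factor CREB3L2 (-1.18 ± 0.31, limma adjusted p = 0.0359) and HSPA5 (-0.80 ± 0.21, limma adjusted p = 0.0371). In 11 heat shock genes 0 rose and 0 fell in ANBL6. The unfolded protein response factor gene XBP1 and the heat shock genes HSPA1A and HSPA1B are listed at 0 in all libraries.

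MHC class II genes fell in ANBL6 with I3MO, and so did their transactivator. Of 11 included members 5 fell and 1 rose, with a median of -0.39, and 9 of the 11 had both I3MO libraries below both DMSO libraries, against 32.3% of the included genes. The count of lower genes was 4 or 5 without any 1 library. CIITA (chr16:10866222-10943021), the master regulator of class II transcription, had 0.814 and 0.608 FPKM in the I3MO libraries and 2.27 and 2.67 FPKM in the DMSO libraries, with a log2 fold change of -1.02 ± 0.10 (SE, limma adjusted p = 0.000135). HLA-DRA, the alpha chain of HLA-DR, had 29.2 and 22.5 FPKM in the I3MO libraries and 63.4 and 54.7 FPKM in the DMSO libraries, with a log2 fold change of -1.17 ± 0.15 (SE, limma adjusted p = 0.000692). For both genes the groups were far apart, and the highest I3MO library was below the lowest DMSO library. CIITA was included only through the DMSO libraries, where it is high. HLA-DRB1, its partner chain, had 15 and 12.5 FPKM in the I3MO libraries and 27.1 and 23.9 FPKM in the DMSO libraries (-0.85 ± 0.18, limma adjusted p = 0.0155). This gene has near-identical copies such as HLA-DRB5, so its level is uncertain, and its call ended without I3MO replicate 2 or either DMSO library. HLA-DPA1 had 2 and 1.7 FPKM in the I3MO libraries and 3.43 and 3.45 FPKM in the DMSO libraries (-0.64 ± 0.07, limma adjusted p = 0.000255).

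RFX5 is a subunit of the factor that binds the X box of class II promoters. It had 8.24 and 7.86 FPKM in the I3MO libraries and 12.7 and 12.6 FPKM in the DMSO libraries (-0.59 ± 0.09, limma adjusted p = 0.00302), with groups apart and a fold change of -0.56 in ANBL6BR. RFXAP, a partner of RFX5 in the same complex, was the 1 member that rose, with 5.73 and 5.8 FPKM in the I3MO libraries and 3.1 and 3.34 FPKM in the DMSO libraries (0.68 ± 0.16, limma adjusted p = 0.0205), a call that ended without any 1 of the 4 libraries. CD74, the class II chaperone known as the invariant chain, had 319 and 330.3 FPKM in the I3MO libraries and 435 and 416 FPKM in the DMSO libraries and did not pass (-0.39, limma adjusted p = 0.126). HLA-DQA1, below the level for inclusion, had 0.432 and 0.327 FPKM in the I3MO libraries and 0.821 and 0.777 FPKM in the DMSO libraries (-0.38 ± 0.06, limma adjusted p = 0.0042).

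The promoters of RFX5 (chr1:151347203-151347502, minus strand) and HLA-DRB1 (chr6:32589799-32590098, minus strand) are shown because both genes fell and both windows hold the core of the class II Y box, ATTGG, marked in capitals on either strand.
RFX5: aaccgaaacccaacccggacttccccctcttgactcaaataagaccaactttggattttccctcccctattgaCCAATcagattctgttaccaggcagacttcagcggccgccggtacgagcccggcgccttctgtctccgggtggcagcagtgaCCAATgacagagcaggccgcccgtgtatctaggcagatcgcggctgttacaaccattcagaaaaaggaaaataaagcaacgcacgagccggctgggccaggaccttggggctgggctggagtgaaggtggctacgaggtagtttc
HLA-DRB1: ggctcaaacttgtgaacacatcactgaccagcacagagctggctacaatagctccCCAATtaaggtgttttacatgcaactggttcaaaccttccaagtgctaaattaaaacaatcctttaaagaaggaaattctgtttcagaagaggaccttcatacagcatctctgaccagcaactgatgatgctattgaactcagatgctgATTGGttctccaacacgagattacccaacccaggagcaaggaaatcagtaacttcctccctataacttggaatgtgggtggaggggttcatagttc
In RFX5 the core lies on the opposite strand 177 and 95 bases before the start, and in HLA-DRB1 on the opposite strand 195 bases and on the gene's strand 46 bases before it. The core was in 5 of 8 class II promoters (62.5%), 38.2% of promoters of included genes and 35.7% of all promoters, and not in the window of HLA-DPA1. The promoters of CIITA and HLA-DRA are not shown here.

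Of the 5 class II genes that fell in ANBL6, all but RFX5 were near 0 in ANBL6BR in both groups, so a fall of these could not be measured there. CIITA averaged 0.0394 FPKM with I3MO and 0.0305 FPKM with DMSO in ANBL6BR, HLA-DRA averaged 0.0268 FPKM with I3MO and 0.0425 FPKM with DMSO and HLA-DRB1 averaged 0.0306 FPKM with I3MO and 0.0649 FPKM with DMSO. HLA-DPA1 averaged 0.00302 FPKM with I3MO and 0 FPKM with DMSO. HLA-DRA had fold changes of -2.03 in ARP1, -0.93 in RPMI8226 and -1.24 in U266. Among 13 MHC class I presentation genes 1 fell and 0 rose, against 5.82% and 5.69% of the included genes. It was TAPBP, the tapasin that loads peptide on class I, with 1.03 and 0.848 FPKM in the I3MO libraries and 2.64 and 2.67 FPKM in the DMSO libraries (-0.91 ± 0.12, limma adjusted p = 0.000902).

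Feedback genes of the IL6 and STAT3 pathway fell. Of 16 included members 6 fell, 0 rose and 15 had a fold change below 0, with a median of -0.46. The count was 4 without I3MO replicate 2 or either DMSO library. SOCS3 (chr17:78356778-78360077), the inhibitor of JAK signalling that STAT3 induces, had 5.48 and 4.43 FPKM in the I3MO libraries and 14.6 and 27.8 FPKM in the DMSO libraries, with a log2 fold change of -1.84 ± 0.30 (SE, limma adjusted p = 0.00362). The DMSO libraries differed from each other by more than the I3MO libraries, and the groups did not overlap. PIM2, a survival kinase of myeloma cells, had 68.5 and 83.2 FPKM in the I3MO libraries and 144 and 129 FPKM in the DMSO libraries (-0.85 ± 0.11, limma adjusted p = 0.000897). BCL3, an NF-kB cofactor, had 5.04 and 4.88 FPKM in the I3MO libraries and 10.1 and 8.17 FPKM in the DMSO libraries (-0.76 ± 0.11, limma adjusted p = 0.00172). JUNB, an AP-1 subunit, had 49.6 and 55.3 FPKM in the I3MO libraries and 100.1 and 127 FPKM in the DMSO libraries (-1.09 ± 0.20, limma adjusted p = 0.00602), and its call ended without DMSO replicate 2. All 3 were lower in both I3MO libraries.

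STAT3 itself, the transcription factor of the pathway, had 5.71 and 4.82 FPKM in the I3MO libraries and 8.1 and 7.61 FPKM in the DMSO libraries (-0.50 ± 0.11, limma adjusted p = 0.0177), and lost its call without I3MO replicate 2, without either DMSO library and after the length trend was removed. The difference from ANBL6BR did not pass for SOCS3, which had a fold change of -2.92 there (difference 1.08 ± 0.43, limma adjusted p = 0.142), and PIM2 had -1.32 there. The STAT element TTCNNNGAA was in the promoter window of 1 of 14 members (7.14%), against 5.84% of promoters of included genes and 7.88% of all promoters. It was not in those of SOCS3, BCL3 or PIM2.

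Among 15 immediate early genes and MAPK brakes 2 fell and 0 rose, with a median of -0.39, and 0 were called without I3MO replicate 1 or without DMSO replicate 2, and 1 without I3MO replicate 2. IER2, a growth factor response gene, had 4.89 and 5.91 FPKM in the I3MO libraries and 7.6 and 11 FPKM in the DMSO libraries (-0.67 ± 0.14, limma adjusted p = 0.0123). BTG2, an antiproliferative gene, had 17.1 and 17.3 FPKM in the I3MO libraries and 23.7 and 42.8 FPKM in the DMSO libraries (-0.86 ± 0.20, limma adjusted p = 0.0211), where DMSO replicate 2 was the highest library. Without that library or I3MO replicate 1 neither was called, and BTG2 was not called without I3MO replicate 2. The fold changes without DMSO replicate 2 were -0.43 for IER2 and -0.44 for BTG2. FOS was below the level for inclusion, at 0.0781 and 0.0496 FPKM with I3MO against 0.789 and 1.3 FPKM with DMSO (-0.93 ± 0.20, limma adjusted p = 0.0137). DUSP1, a MAPK phosphatase, had 2.53 and 2.13 FPKM in the I3MO libraries and 4.66 and 6.31 FPKM in the DMSO libraries and did not pass (-0.95, limma adjusted p = 0.0556).

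No included target of the aryl hydrocarbon receptor rose. Of 6 included members, out of 13 genes listed, 3 fell and 0 rose. The count was 2 without I3MO replicate 1, 1 without I3MO replicate 2, 0 without DMSO replicate 1, 1 without DMSO replicate 2, 1 after the length trend was removed and 0 with 0.1 in place of 1 added to FPKM. CYP1A1, the enzyme the receptor induces most in many tissues, had 1.06 and 1.29 FPKM in the I3MO libraries and 2.01 and 1.73 FPKM in the DMSO libraries (-0.40 ± 0.08, limma adjusted p = 0.00786). AHRR, the receptor's repressor, had 1.03 and 0.998 FPKM in the I3MO libraries and 1.48 and 1.67 FPKM in the DMSO libraries (-0.35 ± 0.09, limma adjusted p = 0.0329), and ARNT, its partner, fell by 0.36 on the log2 scale (limma adjusted p = 0.0489). For CYP1A1 and AHRR the groups did not overlap, at levels of about 1 to 2 FPKM. The call of CYP1A1 ended without DMSO replicate 1, that of AHRR without any 1 of the 4 libraries and that of ARNT without I3MO replicate 2, where its fold change was -0.23, or either DMSO library. The receptor gene AHR itself had 0.549 and 0.372 FPKM in the I3MO libraries and 0.759 and 0.758 FPKM in the DMSO libraries and CYP1B1 was at or near 0, and neither was tested. TIPARP, another target, had 4.21 and 3.32 FPKM in the I3MO libraries and 4.02 and 3.65 FPKM in the DMSO libraries. Elsewhere CYP1A1 had fold changes of 0.76 in ARP1 and -0.40 in RPMI8226.

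The CYP1A1 promoter (chr15:74725479-74725778, minus strand) is shown because the gene is the textbook target, with the receptor's core element GCGTG in capitals, 57 bases before the start on the gene's strand.
CYP1A1: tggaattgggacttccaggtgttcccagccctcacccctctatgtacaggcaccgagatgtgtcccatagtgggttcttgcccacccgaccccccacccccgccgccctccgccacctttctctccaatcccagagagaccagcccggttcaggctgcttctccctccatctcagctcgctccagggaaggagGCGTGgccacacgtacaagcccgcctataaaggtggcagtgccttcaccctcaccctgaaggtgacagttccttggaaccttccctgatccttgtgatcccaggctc
The core was in 4 of 6 included members of the list (66.7%), 53.05% of promoters of included genes and 36.3% of all promoters.

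Genes of transcription elongation and of WNT, NF-kB and MYC signalling moved in few members. Of 13 P-TEFb and elongation genes, which release paused RNA polymerase, 2 fell and 0 rose, 0 of them without either DMSO library, 1 without I3MO replicate 2 and 3 without I3MO replicate 1. HEXIM1, which holds P-TEFb inactive, had 15.8 and 18.2 FPKM in the I3MO libraries and 32.5 and 31.5 FPKM in the DMSO libraries (-0.88 ± 0.17, limma adjusted p = 0.00941). POLR2A, the large subunit of RNA polymerase II, had 21.4 and 18.7 FPKM in the I3MO libraries and 36.3 and 39.6 FPKM in the DMSO libraries (-0.89 ± 0.19, limma adjusted p = 0.0132). Both I3MO libraries were below both DMSO libraries for each, and POLR2A lost its call without I3MO replicate 2. None of 5 GSK3 and WNT target genes was called, and the beta-catenin target AXIN2 was near 0, at 0.0396 and 0.041 FPKM with I3MO against 0.0171 and 0.0214 FPKM with DMSO. Of 14 NF-kB regulators 3 fell and 0 rose, led by RELB (3.79 and 4.77 FPKM with I3MO against 6.61 and 6.94 FPKM with DMSO, -0.56 ± 0.12, limma adjusted p = 0.0137) and ICAM1 (60.8 and 58.3 FPKM with I3MO against 85.8 and 73 FPKM with DMSO, -0.41 ± 0.10, limma adjusted p = 0.032), and 0 or 1 were called without any 1 library. None of 9 genes of the MYC network was called. MYC had 61.6 and 70.3 FPKM in the I3MO libraries and 105 and 94.8 FPKM in the DMSO libraries (-0.59 ± 0.37, limma adjusted p = 0.386), lower in both I3MO libraries with a wide error.

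Replication genes fell little in ANBL6. All 33 genes of replication licensing and forks were included, and 3 fell, 1 rose and 29 did not pass, with a median of -0.16. Over all included genes 5.82% were lower and 5.69% higher. MCM5, a subunit of the replicative helicase, had 21 and 22 FPKM in the I3MO libraries and 31 and 34.5 FPKM in the DMSO libraries (-0.58 ± 0.07, limma adjusted p = 0.000692). MCM2, another subunit, had 23.4 and 25 FPKM in the I3MO libraries and 34.7 and 38.8 FPKM in the DMSO libraries (-0.58 ± 0.08, limma adjusted p = 0.000862). UHRF1, which guides DNA methylation to new strands, had 1.37 and 1.26 FPKM in the I3MO libraries and 2.06 and 2.51 FPKM in the DMSO libraries (-0.50 ± 0.10, limma adjusted p = 0.0121), and lost its call without I3MO replicate 2 or DMSO replicate 2. The 3 genes were lower in both I3MO libraries. CDT1, which loads the helicase on origins, rose, with 27.4 and 30.2 FPKM in the I3MO libraries and 21 and 22.7 FPKM in the DMSO libraries (0.38 ± 0.07, limma adjusted p = 0.00906), a call that ended without I3MO replicate 2 or DMSO replicate 1.

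The medians of the same 33 genes were -0.90 in ANBL6BR, -0.61 in ARP1, -0.23 in RPMI8226 and -1.20 in U266. The ANBL6 response was above that of ANBL6BR for 21 of 33 and below it for 0, against 5.71% and 5.06% of the included genes. It was above the mean of the other 4 models for 21 and below for 0, against 7.32% and 4.71%. For PCNA, the sliding clamp of DNA polymerase, ANBL6 had 109.8 and 122 FPKM in the I3MO libraries and 92 and 99.2 FPKM in the DMSO libraries (0.28 ± 0.16, limma adjusted p = 0.339), while ANBL6BR averaged 52.8 FPKM with I3MO and 134 FPKM with DMSO, a difference of 1.61 ± 0.23 (limma adjusted p = 0.00171). The difference was 1.74 ± 0.10 (limma adjusted p = 3.51e-06) for CDT1 and 1.15 ± 0.10 (limma adjusted p = 8.08e-05) for MCM5. Genes that hardly moved in ANBL6 were called in the difference as well: GINS2, a helicase cofactor, had 12.6 and 15 FPKM in the I3MO libraries and 11.7 and 12.8 FPKM in the DMSO libraries, and its response was above that of ANBL6BR by 1.24 ± 0.15 (limma adjusted p = 0.000632).

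**Figure D4:**
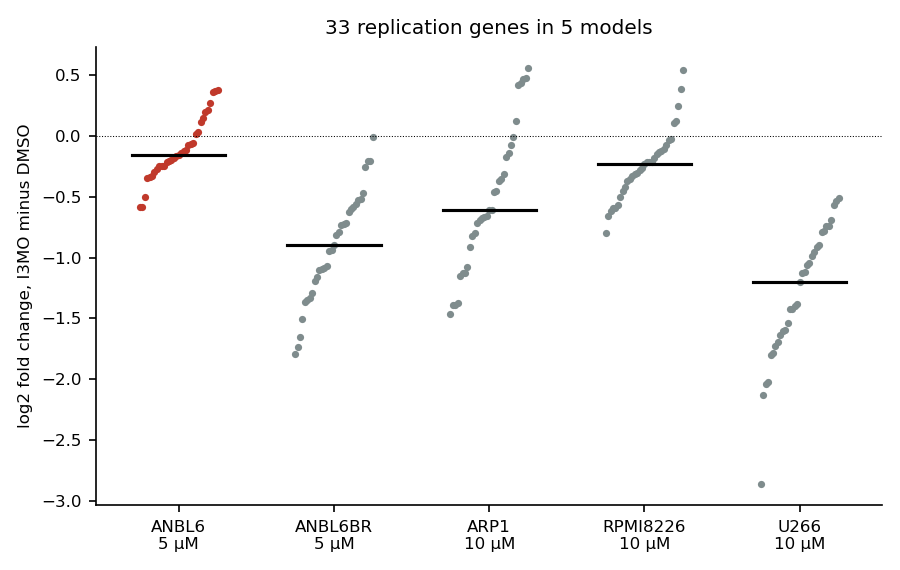
Log2 fold change with I3MO of the 33 replication genes in each model, 1 point per gene, with a line at the median. The ANBL6 points lie around -0.16, those of ANBL6BR around -0.90 and those of U266 around -1.20, where U266, ARP1 and RPMI8226 had 10 µM and the others 5 µM.

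Few cyclins, kinases of cyclins and E2F factors were called. Of 19 genes 1 rose and 2 fell in ANBL6, with a median of -0.05, and 0 fell without I3MO replicate 2 or either DMSO library. CCNE1, cyclin E, which drives entry into S phase, had 2.49 and 3.01 FPKM in the I3MO libraries and 1.49 and 1.35 FPKM in the DMSO libraries (0.63 ± 0.10, limma adjusted p = 0.00362), with no overlap between groups. E2F2 had 24.7 and 25.4 FPKM in the I3MO libraries and 33.8 and 32.2 FPKM in the DMSO libraries (-0.38 ± 0.09, limma adjusted p = 0.0262) and RB1 had 4.54 and 3.55 FPKM in the I3MO libraries and 6.28 and 6.46 FPKM in the DMSO libraries (-0.55 ± 0.15, limma adjusted p = 0.0473). The call of E2F2 ended without any 1 of the 4 libraries. That of RB1 held without I3MO replicate 1 and ended after the length trend was removed. The ANBL6 response was called above that of ANBL6BR for 8 of the 19, against 5.71% of the included genes. Among them were CCNE1 (1.80 ± 0.15, limma adjusted p = 3.12e-05), E2F2 (1.17 ± 0.13, limma adjusted p = 0.000379) and CDK2 (1.09 ± 0.14, limma adjusted p = 0.000964). The ANBL6 response was called above the mean of the other 4 models for 8 of the 19, against 7.32%. The D cyclins did not pass, with 20.4 and 17.8 FPKM with I3MO against 26 and 25.8 FPKM with DMSO for CCND1 (-0.42 ± 0.12, limma adjusted p = 0.0522) and 35.7 and 34.1 FPKM with I3MO against 26.5 and 27 FPKM with DMSO for CCND2 (0.37 ± 0.23, limma adjusted p = 0.38). None of 5 CDK inhibitor genes was called, and CDKN1A (p21) had 6.17 and 6.68 FPKM in the I3MO libraries and 5.6 and 11.5 FPKM in the DMSO libraries.

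Of 28 mitosis genes 3 fell and 0 rose, against 5.82% and 5.69% of the included genes, with a median of -0.23. The count was 4 without I3MO replicate 1, 1 without I3MO replicate 2, 1 without DMSO replicate 1 and 0 without DMSO replicate 2. KIF20A, a kinesin of cytokinesis, had 7.08 and 5.04 FPKM in the I3MO libraries and 9.35 and 9.78 FPKM in the DMSO libraries (-0.60 ± 0.11, limma adjusted p = 0.00684), and PLK1, a mitotic kinase, had 15.7 and 13.5 FPKM in the I3MO libraries and 20.4 and 21.1 FPKM in the DMSO libraries (-0.48 ± 0.12, limma adjusted p = 0.0345). CCNF, a cyclin of late cell cycle, fell by 0.45 on the log2 scale (limma adjusted p = 0.0246). For KIF20A and PLK1 the I3MO libraries were below both DMSO libraries. Without I3MO replicate 2 or DMSO replicate 1 the call of KIF20A was the 1 of the 3 that held. Without I3MO replicate 2 the fold change was -0.39 for KIF20A and -0.28 for CCNF.

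Linker histones moved in opposite directions. H1-2, a replication-dependent linker histone, had 32.9 and 57.6 FPKM in the I3MO libraries and 23.4 and 23.8 FPKM in the DMSO libraries (0.86 ± 0.19, limma adjusted p = 0.0152), where I3MO replicate 2 was the highest library and the call ended without it (fold change 0.47) or without either DMSO library. H1-10, a linker histone made outside S phase, had 19.4 and 22 FPKM in the I3MO libraries and 39.2 and 40.6 FPKM in the DMSO libraries (-0.92 ± 0.17, limma adjusted p = 0.00684). It was lower in both I3MO libraries, and its call ended without DMSO replicate 2. H1-2 averaged 203 FPKM with I3MO and 882 FPKM with DMSO in ANBL6BR, and the ANBL6 response was above it by 2.97 ± 0.26 (limma adjusted p = 6.41e-05).

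Some genes for proteins of the ribosome and the respiratory chain rose. Of 56 included cytosolic ribosomal protein genes 13 rose and 0 fell, 50 had a fold change above 0 and the median was 0.37. RPS25, of the small subunit, had 37.5 and 50.9 FPKM in the I3MO libraries and 13.7 and 14.5 FPKM in the DMSO libraries (1.56 ± 0.19, limma adjusted p = 0.000538). RPL38, of the large subunit, had 64.4 and 72.8 FPKM in the I3MO libraries and 32.8 and 30.7 FPKM in the DMSO libraries (1.08 ± 0.18, limma adjusted p = 0.00405). RPSA had 46.1 and 47.7 FPKM in the I3MO libraries and 31.1 and 32.4 FPKM in the DMSO libraries (0.55 ± 0.08, limma adjusted p = 0.00186). All 3 were higher in both I3MO libraries. The count was 19 without I3MO replicate 1, 4 without I3MO replicate 2, 6 without DMSO replicate 1, 4 without DMSO replicate 2 and 8 with median-ratio scaling. Pseudogenes of these genes are many and nearly identical, so their levels are uncertain.

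Of 45 nuclear genes of the respiratory chain 9 rose and 0 fell, with a median of 0.30, against -0.15 in ANBL6BR. The count was 15 without I3MO replicate 1, 1 without I3MO replicate 2, 2 without DMSO replicate 1 and 1 without DMSO replicate 2, and it was 6 with median-ratio scaling. UQCRH, of complex III, had 169.7 and 198 FPKM in the I3MO libraries and 111 and 115 FPKM in the DMSO libraries (0.69 ± 0.11, limma adjusted p = 0.00223), and NDUFA1, of complex I, had 352 and 421 FPKM in the I3MO libraries and 243 and 233 FPKM in the DMSO libraries (0.69 ± 0.15, limma adjusted p = 0.0166). Neither gene's groups overlapped, and NDUFA1 lost its call without I3MO replicate 2 or either DMSO library. The response was called above that of ANBL6BR for 9 of the 45 and below it for 0, against 5.71% and 5.06% of the included genes. It was called above the mean of the other 4 models for 14 and below it for 0, against 7.32% and 4.71%. Of 14 mitochondrially encoded genes 1 rose, MT-CYB of complex III (0.86 ± 0.24, limma adjusted p = 0.0484), a call that ended without any 1 of the 4 libraries. Over all included genes 5.69% were called higher.

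Fold changes in ANBL6 also moved with gene length. Protein-coding genes with merged exons of up to 1000 bases had a median fold change of 0.33, with 17 higher and 3 lower of 101. The median was 0.21 for 675 genes up to 2000 bases, 0.10 for 2340 genes up to 4000 bases, -0.04 for 3604 genes up to 8000 bases and -0.17 for 1623 longer genes, of which 18 were higher and 199 lower. From the shortest class to the longest it ran from 0.20 to -0.10 in I3MO replicate 1 and from 0.46 to -0.25 in I3MO replicate 2. The DMSO libraries differed from each other by -0.03 to 0.02 over the same classes, and ANBL6BR medians lay between -0.04 and 0.00. In ARP1 the medians ran the other way, at -0.18, -0.14, -0.04, 0.08 and 0.21 from the shortest class to the longest, while they lay between -0.08 and 0.03 in RPMI8226 and between -0.04 and -0.02 in U266. After this trend was removed, an alternative chosen after seeing the data, 10 ribosomal protein genes were higher and 2 lower with a median of 0.32, and 8 respiratory chain genes were higher and 0 lower. Processed pseudogenes, which are also short, were higher for 38 and lower for 7 of 274, with a median of 0.27.

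**Figure D5:**
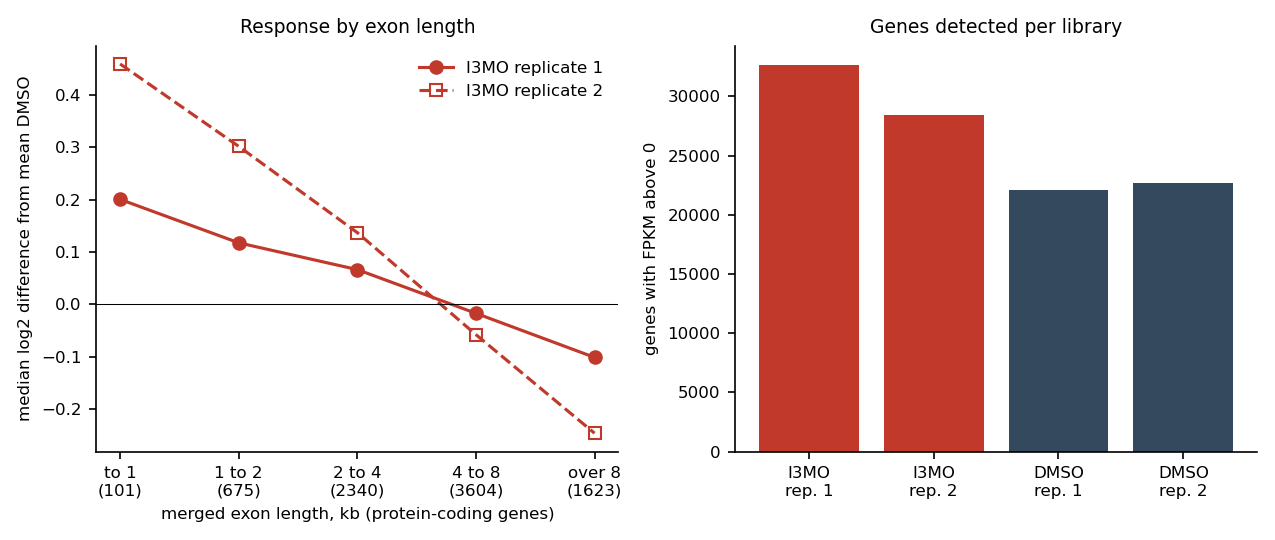
The left panel gives the median log2 difference of I3MO replicate 1 and replicate 2 from the mean of the DMSO libraries by class of merged exon length, which falls from the shortest to the longest genes in both and more steeply in replicate 2. The right panel gives the number of genes above 0 in each ANBL6 library, 32668 and 28419 with I3MO against 22138 and 22710 with DMSO.

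The extra genes above 0 in the I3MO libraries were at low levels. There were 4300 genes at 0 in both DMSO libraries and above 0 in both I3MO libraries, against 280 the other way round, and the median level of the 4300 was 0.0961 FPKM. At 0.1 FPKM in both I3MO libraries the count was 1591, against 184, and at 1 FPKM it was 31, against 13. The 4300 held 7.64% of the listed protein-coding genes, 9.61% of processed pseudogenes, 9.24% of lincRNA genes and 7.04% of antisense genes. Of them 1146 were at 0 in all 16 libraries of the other models. The same count was 675 in ANBL6BR, 1168 in ARP1, 531 in RPMI8226 and 587 in U266. Only 31 of the 4300 are among the 10086 genes. What gave rise to these reads was not tested.

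Summed levels of genes of other cell types were above both DMSO libraries in both I3MO libraries for fibroblast, hepatocyte, T and NK cell, neuron and endothelial genes, below them for myeloid and epithelial genes, and overlapped for erythroid and platelet genes. Summed FPKM was 1.43 and 1.2 with I3MO against 0.365 and 0.491 with DMSO for 12 fibroblast genes, and 0.446 and 0.507 against 0.115 and 0.101 for 12 hepatocyte genes. The other sums, I3MO before DMSO, were 26.0 and 28.7 against 25.8 and 20.9 for T and NK cell genes, 5.05 and 3.85 against 5.41 and 5.50 for myeloid genes, and 1.77 and 1.77 against 1.69 and 1.66 for neuron genes. Endothelial genes summed to 1.16 and 0.574 FPKM with I3MO against 0.419 and 0.485 FPKM with DMSO, erythroid and platelet genes to 1.14 and 0.666 FPKM against 0.707 and 0.958 FPKM, and epithelial genes to 35.3 and 37.8 FPKM against 39.7 and 41.4 FPKM. Of 376 olfactory receptor genes 99 and 62 were above 0 with I3MO, against 15 and 13 with DMSO and 7 to 29 in the other 16 libraries. The part of low-level reads in the calls was not tested. An alternative that subtracted from each library its mean FPKM over the olfactory receptor genes gave 1233 calls against 1250. That mean was 0.0388 and 0.0223 FPKM in the I3MO libraries and 0.00937 and 0.00681 FPKM in the DMSO libraries. These values lie below the median of 0.0961 FPKM of the 4300 genes, so this count says little about the part of such reads.

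Among metabolic genes, the regulators SREBF1 and TXNIP fell most. SREBF1, which switches on sterol and fatty acid synthesis, had 43 and 42.6 FPKM in the I3MO libraries and 87.8 and 88.4 FPKM in the DMSO libraries (-1.02 ± 0.07, limma adjusted p = 2.95e-06), and of 26 genes of that synthesis it and ACLY fell (28.8 and 23.8 FPKM with I3MO against 35.3 and 36.8 FPKM with DMSO for ACLY, -0.45 ± 0.12, limma adjusted p = 0.0463) and 0 rose. Both I3MO libraries lay below both DMSO libraries for each, and the call of ACLY ended without I3MO replicate 2 or either DMSO library. TXNIP, which restrains glucose uptake and binds thioredoxin, had 22 and 29.2 FPKM in the I3MO libraries and 58 and 86.9 FPKM in the DMSO libraries (-1.45 ± 0.26, limma adjusted p = 0.00602). Its adjusted p was 0.0739 (limma) without DMSO replicate 2, the highest library. Of 20 glycolysis and hypoxia genes 2 rose and 0 fell, against 5.69% and 5.82% of the included genes. ALDOC rose by 0.32 and BNIP3 by 0.38 (limma adjusted p = 0.022 and 0.0398). The 2 calls became 1 without I3MO replicate 1 and 0 without any 1 of the other 3 libraries, and after the length trend was removed 0 were higher and 1 lower. Against ANBL6BR, the response was called higher for 7 of the 20, GAPDH among them (1.17 ± 0.24, limma adjusted p = 0.0126). It was called lower for 1, HK2 (-1.19 ± 0.16, limma adjusted p = 0.00117). The included genes had 5.71% called higher and 5.06% called lower in that comparison.

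Genes of the antioxidant response moved in few members. Of 17 NRF2 targets 3 rose and 1 fell in ANBL6, against 5.69% and 5.82% of the included genes. SLC48A1, a heme transporter, had 11.1 and 11.7 FPKM in the I3MO libraries and 7.39 and 6.59 FPKM in the DMSO libraries (0.64 ± 0.10, limma adjusted p = 0.00229), and TXN, thioredoxin, had 179 and 200.4 FPKM in the I3MO libraries and 132 and 126 FPKM in the DMSO libraries (0.55 ± 0.15, limma adjusted p = 0.042), with no overlap between groups for either. ABCC1, a drug and glutathione exporter, fell by 0.49 on the log2 scale (limma adjusted p = 0.0187), a call that ended without I3MO replicate 2 or DMSO replicate 2. Of the 3 rises 2 were called without I3MO replicate 1 and 1 without each of the other libraries, with median-ratio scaling or after the length trend was removed, and this 1 was SLC48A1. HMOX1, heme oxygenase, had 103 and 158 FPKM in the I3MO libraries and 26 and 43.8 FPKM in the DMSO libraries and did not pass (1.89 ± 0.65, limma adjusted p = 0.0985), although the groups did not overlap. Its response was above that of ANBL6BR by 3.96 ± 0.92 (limma adjusted p = 0.0215), where the I3MO libraries had 59.7 and 76.0 FPKM and the DMSO libraries 99.0 and 825 FPKM. The difference was 2.44 (limma adjusted p = 0.00167) when that highest library, DMSO replicate 2, was left out and 5.48 when the other ANBL6BR DMSO library was. It was no longer called without I3MO replicate 2 or DMSO replicate 1 of ANBL6, or without either I3MO library of ANBL6BR (limma adjusted p of 0.0609 to 0.0872).

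None of 36 proteasome subunit genes was called in ANBL6, where the median was 0.10, against -0.51 in ANBL6BR. PSMB5, the subunit that bortezomib binds, had 18 and 22.8 FPKM in the I3MO libraries and 16.2 and 15.3 FPKM in the DMSO libraries (0.35, limma adjusted p = 0.247). The response was called above that of ANBL6BR for 5 of the 36, where 5.71% of the included genes were. Among them was PSMB6 (34 and 44.6 FPKM with I3MO against 36.6 and 36.3 FPKM with DMSO, difference 1.06 ± 0.25, limma adjusted p = 0.0225). The regulators NFE2L1 and NFE2L2, which encode NRF1 and NRF2, had fold changes of -0.11 and 0.32 and did not pass (limma adjusted p = 0.626 and 0.157). Neither did PSME3, a proteasome activator (-0.12, limma adjusted p = 0.621), SQSTM1, an autophagy receptor (0.08, limma adjusted p = 1), or USP7, a ubiquitin protease (-0.17, limma adjusted p = 0.254).

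Interferon-stimulated genes moved in both directions. Of 18 included members, out of 28 listed, 5 rose and 2 fell, with a median of 0.31. The antiviral effectors IFIT1, IFIT2 and IFIT3, which bind foreign RNA or partner those that do, rose. IFIT3 had 5.66 and 11.3 FPKM in the I3MO libraries and 3.16 and 3.48 FPKM in the DMSO libraries (1.07 ± 0.22, limma adjusted p = 0.0119), IFIT2 had 2.09 and 4.19 FPKM in the I3MO libraries and 1.06 and 1.1 FPKM in the DMSO libraries (0.94 ± 0.17, limma adjusted p = 0.00671) and IFIT1 had 1.41 and 2.47 FPKM in the I3MO libraries and 0.575 and 0.692 FPKM in the DMSO libraries (0.82 ± 0.14, limma adjusted p = 0.00433). ISG15, a ubiquitin-like protein, had 9.07 and 18 FPKM in the I3MO libraries and 7.49 and 6.36 FPKM in the DMSO libraries (0.81 ± 0.22, limma adjusted p = 0.0455), and OASL, of the oligoadenylate synthetase family, had 1.92 and 4.31 FPKM in the I3MO libraries and 1.6 and 1.13 FPKM in the DMSO libraries (0.74 ± 0.21, limma adjusted p = 0.0498). In all 5, I3MO replicate 2 was the highest library, and IFIT1 was included only through the I3MO libraries. Without it the fold changes were 0.57 for IFIT2, 0.63 for IFIT3, 0.35 for ISG15 and 0.31 for OASL, and without I3MO replicate 1 that of ISG15 was 1.26. The transcription factor genes IRF1 (2.73 and 3.11 FPKM with I3MO against 5.06 and 5.46 FPKM with DMSO, -0.68 ± 0.14, limma adjusted p = 0.0121) and STAT2 (2.79 and 2.43 FPKM with I3MO against 3.9 and 3.51 FPKM with DMSO, -0.38 ± 0.08, limma adjusted p = 0.0142) fell. The 5 rises became 6 without I3MO replicate 1 and 2 without any 1 of the other 3 libraries, and the 2 falls 0 without I3MO replicate 2 or DMSO replicate 1. IFIT1 and IFIT2 were the 2 rises called in each of these fits. After the length trend was removed 3 were higher. ISG15 stood above the mean response of the other 4 models by 1.97 ± 0.25 (limma adjusted p = 0.000704). In that comparison 8 of the 18 members were called higher, against 7.32% of the included genes.

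Survival genes moved in few members. Of 12 BCL2 family genes 1 fell and 0 rose, against 5.82% and 5.69% of the included genes. It was BMF, a BH3-only killer protein, with 0.372 and 0.433 FPKM in the I3MO libraries and 1.26 and 1.43 FPKM in the DMSO libraries (-0.74 ± 0.08, limma adjusted p = 0.000214), and -1.55 in ANBL6BR. BMF was included only through the DMSO libraries, where it is high. BCL2L1, the survival protein BCL-XL, had 4.68 and 6.2 FPKM in the I3MO libraries and 3.38 and 3.04 FPKM in the DMSO libraries and did not pass (0.61, limma adjusted p = 0.0982), and MCL1, on which most myeloma cells depend, had 30.1 and 23.8 FPKM in the I3MO libraries and 33.2 and 30.4 FPKM in the DMSO libraries (-0.24, limma adjusted p = 0.355). Of 17 p53 targets 2 fell and 0 rose, against 5.82% and 5.69% of the included genes. BBC3 (PUMA, another killer protein), included only through the DMSO libraries, had 0.602 and 0.684 FPKM with I3MO against 1.16 and 2.54 FPKM with DMSO (-0.75 ± 0.19, limma adjusted p = 0.0305). PLK3 fell by 0.69 on the log2 scale (limma adjusted p = 0.0383). Both calls ended without I3MO replicate 1, without I3MO replicate 2 or without DMSO replicate 2. The fold changes without DMSO replicate 2 were -0.39 for BBC3 and -0.40 for PLK3.

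Plasma cell factors were lower with I3MO without passing the test. Of 6 included members 0 were called, with fold changes of -0.88 to -0.18, and both I3MO libraries were below both DMSO libraries for all 6, against 32.3% of the included genes. IRF4, on which myeloma cells depend, had 20.5 and 18.2 FPKM in the I3MO libraries and 23.8 and 21.2 FPKM in the DMSO libraries (-0.21, limma adjusted p = 0.809), and PRDM1 (BLIMP1), which drives plasma cell fate and represses CIITA, had 1.9 and 1.61 FPKM in the I3MO libraries and 1.95 and 3.06 FPKM in the DMSO libraries (-0.33, limma adjusted p = 0.373). None of 10 surface antigens was called. SDC1 had a fold change of -0.01 (limma adjusted p = 1), and CD38, an enzyme on the plasma cell surface, had 17.6 and 12 FPKM in the I3MO libraries and 30.3 and 25.7 FPKM in the DMSO libraries and did not pass (-0.90, limma adjusted p = 0.062). Its adjusted p (limma) was 0.0352 to 0.409 over 14 alternatives and passed in 4 of them.

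The largest fold changes outside these lists were of mixed kinds. Of the 10 largest rises, PHGDH, ASS1 and RPS25 are described above. The other 7 were short or noncoding: the microRNA genes MIR1268A, MIR8059 and MIR6885, the pseudogenes ATP5MFP2 and FTH1P15, the long noncoding LINC02356 and ENSG00000273338, an antisense gene whose reads cannot be told from those of its partner gene without strand. MIR1268A rested on 3 and 2 fragments with I3MO against 0 and 0 with DMSO, MIR8059 on 2 and 3 fragments with I3MO against 0 and 0 with DMSO and MIR6885 on 3 and 1 fragments with I3MO against 0 and 0 with DMSO, and no fold is given, since a count of 0 allows up to 3 fragments. ATP5MFP2 had 44.8 and 64.3 FPKM in the I3MO libraries and 15.8 and 11.8 FPKM in the DMSO libraries (1.90 ± 0.25, limma adjusted p = 0.000897) and FTH1P15 3.05 and 3.85 FPKM in the I3MO libraries and 0.248 and 0.247 FPKM in the DMSO libraries (1.83 ± 0.25, limma adjusted p = 0.00135), and both share sequence with their parent genes, so their levels are uncertain. Calls ended without I3MO replicate 2 or DMSO replicate 1 (for LINC02356 also DMSO replicate 2) for LINC02356 and ENSG00000273338, and without I3MO replicate 1 or either DMSO library for MIR6885.

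Among the 10 largest falls, 5 were of protein-coding genes. ANXA13, an annexin of the gut, had 2.75 and 2.51 FPKM in the I3MO libraries and 9.94 and 9.74 FPKM in the DMSO libraries (-1.58 ± 0.06, limma adjusted p = 4.39e-08). MYBPH, a muscle myosin-binding protein, had 2.59 and 2 FPKM in the I3MO libraries and 9.9 and 6.96 FPKM in the DMSO libraries (-1.50 ± 0.13, limma adjusted p = 4.3e-05). ELF3, an epithelial transcription factor, had 1.1 and 0.916 FPKM in the I3MO libraries and 4.56 and 4.36 FPKM in the DMSO libraries (-1.45 ± 0.07, limma adjusted p = 3.23e-07). In each the 2 I3MO libraries were close together and far below both DMSO libraries, and the other 2, TXNIP and SOCS3, are described above. IGLV2-14, a variable segment of the lambda light chain that has near-identical neighbours, had 37.7 and 45 FPKM in the I3MO libraries and 144 and 120.5 FPKM in the DMSO libraries (-1.65 ± 0.16, limma adjusted p = 6.92e-05). The mitochondrial tRNA genes MT-TT and MT-TE fell on few fragments and lost their calls without I3MO replicate 2 or DMSO replicate 2, with 6 and 3 fragments with I3MO against 16 and 25 with DMSO for MT-TT and 2 and 1 fragments with I3MO against 6 and 9 with DMSO for MT-TE, and MIR4292 and ENSG00000235499 complete the 10. MIR4292 was not called without I3MO replicate 1 (fold change -1.04) or either DMSO library. Of the genes at 0 in both libraries of 1 group, none of the 5 highest each way is annotated as protein-coding. They were MIR933, MIR1268A, MIR8059, ENSG00000274481 and ENSG00000281227.1 in the I3MO libraries, and MIR3682, SNORD105, MIR573, a Y_RNA gene and RNU6-101P in the DMSO libraries. The 8 of them that encode small RNAs had 2 to 4 fragments a library, and the pseudogene ENSG00000274481 had 9 and 7 fragments with I3MO.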

How the data were processed

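Per the labels' protocols, total RNA was extracted with a column kit and made into libraries with standard Illumina protocols. Per the submitters' processing notes, the authors used Trimmomatic (versions 0.32 and 0.36 are named), STAR, SAMtools and the build hg38. The sources used here do not name the counting tool or annotation. The authors deposited FPKM for 60483 genes in a joint table and in 20 tables of single libraries with the same values. The files hold no counts, and the depths and fragments given were recovered from the steps between FPKM values of single-exon genes (whole to within 0.02). They cover counting error only.

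Groups and doses came from the labels. Genes at 1 FPKM or more in at least 2 of 20 libraries (15687) were fitted as log2(FPKM + 1) in R 4.3.3 by limma 3.58.1, with means for 10 groups, a variance trend, two-sided tests and Benjamini-Hochberg adjustment over all 15687. Calls were made at an adjusted p under 0.05. Tables and plots used Python 3.11.15, pandas 2.3.3, numpy 2.4.6 and matplotlib 3.10.9. The code was tested on simulated data. Symbols and positions came from GENCODE 29, which named 9996 of the 10086 genes, and promoters from RefSeq (GRCh38.p14), which held 7246 of them.

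The comparison, the genes included and the gene lists were chosen with earlier results of these data known. The genes named were the 10 largest rises and 10 largest falls with non-overlapping groups and a mean of at least 1 FPKM, up to 6 called members of each list by p, a set of genes given whatever their values, the 5 largest each way for both differences of responses and the 5 highest genes at 0 in each group. Other list members named were chosen after their values were seen. A few genes that this rule names are not reported here. Alternatives were another pseudocount, no filter, another scaling, other gene sets, subtraction of each library's mean over olfactory receptor genes, the 4 libraries alone, a replicate block and leaving out each library. Removal of the length trend was added after seeing the data.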

Additional observations from a re-analysis of the deposited data

Results flagged for a closer look

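The ANBL6 response differed from that of ANBL6BR at the same dose, by a test of the difference itself (limma, adjusted p under 0.05), for the genes and lists given here. Among the 5 largest differences upwards were HMOX1 at 3.96, H1-2 at 2.97, H2BC12 (a core histone) at 2.30 and ID3 (an inhibitor of DNA binding) at 2.30. HMOX1 had 59.7 and 76.0 FPKM with I3MO and 99.0 and 825 FPKM with DMSO in ANBL6BR, and its difference was 2.44 without the highest of these, ANBL6BR DMSO replicate 2, and not called without I3MO replicate 2 or DMSO replicate 1 of ANBL6 or either I3MO library of ANBL6BR. H2BC12 had 31 and 57.1 FPKM in the I3MO libraries and 15.1 and 18.7 FPKM in the DMSO libraries in ANBL6, and averaged 101 FPKM with I3MO and 206 FPKM with DMSO in ANBL6BR. ID3 had 2.44 and 2.36 FPKM in the I3MO libraries and 3.61 and 3.5 FPKM in the DMSO libraries in ANBL6, and averaged 0.991 FPKM with I3MO and 12.8 FPKM with DMSO in ANBL6BR. The fifth, ENSG00000277573.1 at 3.99, had 2.66 and 10.3 FPKM in the I3MO libraries and 1.73 and 2.59 FPKM in the DMSO libraries in ANBL6, with I3MO replicate 1 close to DMSO replicate 2. In ANBL6BR it had 0 and 0 FPKM with I3MO and 1.72 and 20.8 FPKM with DMSO, so that difference depends on the value added to FPKM. It was 2.49 to 7.22 over 14 alternatives and was not called in 9, among them those without I3MO replicate 2 or either DMSO library of ANBL6 and without either I3MO library or DMSO replicate 2 of ANBL6BR. The calls of H1-2, H2BC12 and ID3 held in all 14.

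The largest differences downwards were MIR6783 at -2.73, which rested on 0 and 0 fragments with I3MO against 4 and 1 with DMSO, MT-TT at -2.50, ENSG00000278635 at -2.10, TXNIP at -1.72 and HYOU1 at -1.71. MT-TT had 6.54 and 3.81 FPKM in the I3MO libraries and 17 and 26.6 FPKM in the DMSO libraries. The HYOU1 difference was called in all 14 alternatives. The TXNIP difference was not called with the replicate block, without DMSO replicate 2 of ANBL6 or without I3MO replicate 1 of ANBL6BR, and MT-TT was not with the block, without I3MO replicate 2 or DMSO replicate 2 of ANBL6 or without I3MO replicate 2 of ANBL6BR. MIR6783 was not called in 7 of 14, among them those without DMSO replicate 1 or either I3MO library of ANBL6 and without I3MO replicate 2 or DMSO replicate 1 of ANBL6BR. ENSG00000278635 was not called in 8, among them those without any 1 of the 4 ANBL6 libraries and without any 1 ANBL6BR library other than DMSO replicate 2.

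In lists, set against 5.71% of included genes whose response was called higher than in ANBL6BR and 5.06% called lower, the response was lower in ANBL6 for 6 of 25 ER chaperone genes, with 0 higher. It was higher for 21 of 33 replication genes, 8 of 19 cyclin, kinase and E2F genes, 9 of 45 respiratory chain genes, 7 of 20 glycolysis genes, 6 of 17 NRF2 targets, 6 of 18 interferon-stimulated genes and 5 of 36 proteasome genes. In each of the glycolysis, NRF2 and interferon lists 1 gene was lower, and in the other lists 0 were.

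Against the mean response of the other 4 models, where dose and model cannot be told apart, the largest fitted differences upwards were MIR1268A at 2.23, H1-2 at 2.21, RNU6-1223P at 2.08, the chemokine gene CCL5 at 1.98 and ISG15 at 1.97. CCL5 had 2.97 and 8.09 FPKM in the I3MO libraries and 1.48 and 1.27 FPKM in the DMSO libraries, and I3MO replicate 2 was the highest library for CCL5, ISG15 and H1-2. MIR1268A rested on 3 and 2 fragments with I3MO against 0 and 0 with DMSO and was at 0 in all 16 other libraries, so its fitted value depends on the value added to FPKM and is neither a fold nor a bound. RNU6-1223P rested on 2 and 3 fragments with I3MO against 0 and 1 with DMSO, and was not called with the replicate block, without I3MO replicate 2 or without DMSO replicate 1. Downwards they were MT-TT at -2.04, the complement receptor gene C5AR1 at -1.57, MT-TE at -1.57, ANXA13 at -1.57 and IGLV2-14 at -1.42. MT-TT and MT-TE were at 0 in every ARP1, RPMI8226 and U266 library, ANXA13 was at most 0.0453 FPKM in the 16 other libraries and IGLV2-14 was at or near 0 in ARP1 and U266, so a fall could not be measured in those libraries and these 4 differences rest in part on them. Those of MT-TT and MT-TE were not called without I3MO replicate 2 or DMSO replicate 2, and that of IGLV2-14 was not with 0.1 in place of 1 added to FPKM. C5AR1 had 2.64 and 2.93 FPKM in the I3MO libraries and 5.46 and 6.51 FPKM in the DMSO libraries, lower in both I3MO libraries, while its fold change in U266 was 2.13. Set against 7.32% of included genes called higher in this comparison, the response was higher in ANBL6 for 21 of 33 replication genes, 14 of 45 respiratory chain genes, 8 of 19 cyclin, kinase and E2F genes, 8 of 18 interferon-stimulated genes, 6 of 20 glycolysis genes and 5 of 28 mitosis genes, with 1 glycolysis gene lower. The 5 of 56 ribosomal protein genes called higher, with 1 lower, were near that share. These comparisons share the ANBL6 libraries. Fold changes moved with gene length in ANBL6, hardly in ANBL6BR and the other way in ARP1, as described above. The list counts of both comparisons were not made again with that trend removed, so the part of length in them was not tested.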

How the results depend on the processing

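With 2 libraries a group, the number of calls depended on each library. The 1250 calls between I3MO and DMSO became 4181 with no filter (80.8% of them higher, against 51.4%), 18 with the 4 ANBL6 libraries alone (1 higher, 17 lower), 1011 after the length trend was removed and 355 to 1287 without any 1 library. With median-ratio scaling 41.7% of 1077 calls were higher. The 1328 differences from ANBL6BR became 2888 with no filter and 555 to 2201 without any 1 library, and the 1535 differences from the other models 4180 with no filter and 575 to 1423 without any 1 ANBL6 library (the other 16 were not left out). Of 626 list members, 109 were called, 0 with the 4 libraries alone and 42 to 116 without any 1 library. The 4300 genes at 0 with DMSO and above 0 with I3MO became 1591 at 0.1 FPKM and 31 at 1 FPKM. Replicate numbers share only a number (their deviations correlated at -0.0066 in ANBL6), and a fit with the replicate block gave 456, 452, 668 and 53 calls for the 3 comparisons and the lists. Genes that did not pass in ANBL6 and changed sign were CDKN1A (-0.75 to 0.17 without any 1 library), SDC1 (-0.0746 to 0.0572), SQSTM1 (-0.0904 to 0.249) and TIPARP (-0.16 to 0.11). Of 135 called values named, 0 changed sign in any alternative, which was largely set in advance. Many genes were picked for ANBL6 groups that do not overlap, so leaving out 1 library cannot turn their ANBL6 fold change. Several other alternatives keep the same group means. Of the 135, 121 remained called after the length trend was removed, 114 with a pseudocount of 0.1, 79 with the replicate block and 3 of 115 with the 4 ANBL6 libraries alone. Why fewer remained called was not tested, beyond the smaller number of libraries in the fit of 4. Depth limits genes under 1 FPKM.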

Other observations

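Core and linker histone genes and a few other genes were looked at after their values were seen and are given as a description. Of 33 included histone genes 4 rose and 2 fell in ANBL6, against 5.69% and 5.82% of the included genes. Their median was -0.03, against -0.67 in ANBL6BR. The difference of the responses was called higher in ANBL6 for 15 and lower for 1, against 5.71% and 5.06%. I3MO replicate 2 was above I3MO replicate 1 for 27 of the 33. Many histone genes are short, and protein-coding genes up to 1000 bases had a median I3MO replicate 2 minus replicate 1 of 0.29. For those of 1000 to 2000 bases it was 0.18. H2BC12 had a fold change of 1.28 ± 0.21 (limma adjusted p = 0.00393). H4C9, a histone H4 gene, had 10.7 and 16.7 FPKM in the I3MO libraries and 5.82 and 5.45 FPKM in the DMSO libraries (1.12 ± 0.21, limma adjusted p = 0.00756), and H3C10, a histone H3 gene, had 2.98 and 2.87 FPKM in the I3MO libraries and 1.17 and 1.4 FPKM in the DMSO libraries (0.78 ± 0.14, limma adjusted p = 0.00684). Both were higher in each I3MO library. Histone genes have near-identical copies, so single levels are uncertain.

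MAF, a transcription factor that is an oncogene of myeloma, had 43.7 and 42.3 FPKM in the I3MO libraries and 88.4 and 80.7 FPKM in the DMSO libraries (-0.96 ± 0.13, limma adjusted p = 0.00122). PTP4A1, a phosphatase of growing cells, had 40.1 and 35.8 FPKM in the I3MO libraries and 99.9 and 80.5 FPKM in the DMSO libraries (-1.22 ± 0.14, limma adjusted p = 0.000315). For MAF and PTP4A1 the I3MO libraries were below both DMSO libraries. CKS2, a small partner of cyclin-dependent kinases, had 103 and 110.2 FPKM in the I3MO libraries and 55.4 and 47.9 FPKM in the DMSO libraries (1.04 ± 0.16, limma adjusted p = 0.00255), and TUBB2B, a beta tubulin, had 16.7 and 15.4 FPKM in the I3MO libraries and 6.95 and 6.7 FPKM in the DMSO libraries (1.12 ± 0.16, limma adjusted p = 0.00167). GOLT1A, a Golgi transport protein, had 4.89 and 4.84 FPKM in the I3MO libraries and 1.31 and 1.7 FPKM in the DMSO libraries (1.23 ± 0.09, limma adjusted p = 6.43e-06), and G0S2, a lipase inhibitor, had 42.1 and 75.9 FPKM in the I3MO libraries and 32.6 and 25.2 FPKM in the DMSO libraries (0.96 ± 0.19, limma adjusted p = 0.0116). All 4 were higher in both I3MO libraries. Among genes for the lambda light chain, IGLV2-14 fell, as given above, and IGLV2-11 was lower in both I3MO libraries without passing, with 947 and 1098 FPKM in the I3MO libraries and 2115 and 1645 FPKM in the DMSO libraries (-0.87 ± 0.28, limma adjusted p = 0.0768). IGLV2-23 overlapped between groups, with 261 and 307 FPKM in the I3MO libraries and 336 and 289 FPKM in the DMSO libraries. With DMSO, IGLV2-14 averaged 132 FPKM in ANBL6 and 18018 FPKM in ANBL6BR. The other genes went the other way, with 1880 FPKM in ANBL6 and 4.09 FPKM in ANBL6BR for IGLV2-11. IGLV2-23 had 313 FPKM and 2.97 FPKM, and the constant segment IGLC2 had 3433 FPKM and 2.48 FPKM. Whether ANBL6 and ANBL6BR are of the same clone was not tested. CDK6, the kinase of D cyclins, had 8.23 and 5.67 FPKM in the I3MO libraries and 14.3 and 14.4 FPKM in the DMSO libraries and did not pass (-0.97 ± 0.29, limma adjusted p = 0.061).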
